A study of Mus musculus with 12 samples.

Results

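The miRNAs described here are entries of a mouse liver count table that carry a name without an arm, that is without the ending -3p or -5p. Of 1929 miRNAs in the table, 314 had such a name. The members were chosen by their mean raw count, at least 10 over the 12 libraries, and 16 armless names above that mean were left out, 10 of which fell with treatment in these same data. That left 67 members. Since both the counts and those falls shaped the choice, the number of members that fell, and their median, are given below as a description only. Just inside the threshold stood miR-1946b, miR-5104 and miR-697, with mean raw counts of 10.17, 10.33 and 10.42. Just outside it stood miR-5103, miR-8103 and miR-1953, with 9.75, 9.58 and 9.17.

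Small RNA was sequenced from the livers of 12 C57BL/6 mice, all of which received CCl4 by intraperitoneal injection, a hepatotoxin that produces fibrosis. In the water group, 6 mice were given double distilled water into the stomach every day. The other 6 mice received Pien Tze Huang (PZH), a patent formula of Chinese medicine, by that route in place of water. Sex, age, dose and duration are not given in the labels, no group is free of CCl4, and each library is taken as 1 mouse because the labels name 1 liver sample each.

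A miRNA is cut from a hairpin in its precursor by Drosha and then Dicer, and the strand loaded into Argonaute pairs with target messages mainly through its seed, bases 2 to 8. An arm ending is used when products of both arms of the hairpin have been catalogued, so an entry without one is usually known from a single product. Entries of this kind include well studied miRNAs such as miR-484, which acts on mitochondrial fission through Fis1, as well as entries that resemble repeats or other non-coding RNAs, so that reads of those can be counted under their names.

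The RefSeq miRNA table (GRCm38.p6) held a mature sequence for 56 of the 67 members, of 17 to 26 bases. Those not in it were miR-5099, miR-3470a, miR-6539, miR-28c, miR-1946a, miR-6359, miR-1194, miR-6407, miR-145b, miR-1668 and miR-3960. For 46 of the 56 the RefSeq table also held the hairpin, and for each of these 46 it listed 1 mature product. The members on which the comparison of PZH with water turns are shown first, 5′ to 3′, with the seed in capitals.
miR-1192: aAACAAACaaacagaccaaauu
miR-3473e: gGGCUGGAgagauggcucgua
miR-3473b: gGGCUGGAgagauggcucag
miR-6538: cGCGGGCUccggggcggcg
miR-6239: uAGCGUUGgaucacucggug
The seeds of miR-3473e and miR-3473b are identical, and these miRNAs share a run of 18 bases.

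The 67 members together held a small share of each library. The share was lowest at 0.471%, with a median of 0.506% and a highest value of 0.59%, with water. With PZH it was lowest at 0.423%, with a median of 0.535% and a highest value of 0.628%. These ranges overlapped, and PZH replicates 6 and 1 were the lowest and highest of all 12 libraries. Without miR-5099, the most counted member, the medians were 0.357% and 0.381%. Of all values of the members, 5 were at 0, each in another member, and no cell of the deposited table holds a count of 1.

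**Figure D1:**
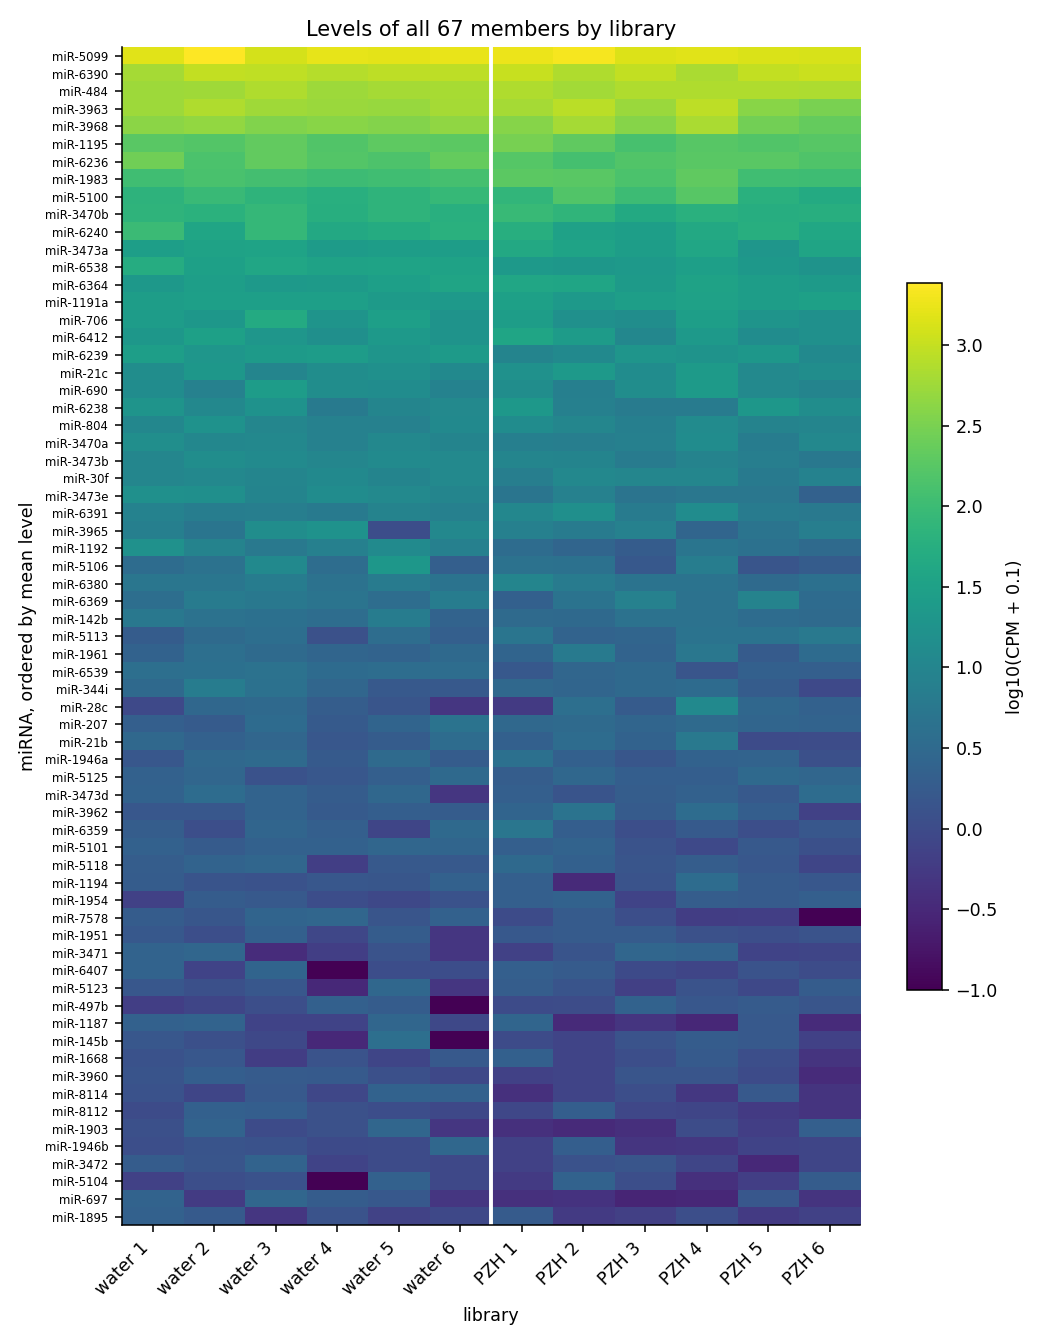
Levels of the 67 members (rows, ordered by mean level) in the 6 water and 6 PZH libraries (columns), as log10 of CPM (counts scaled to a library total of 1000000) plus 0.1 on the colour scale. The uppermost row, miR-5099, lies between 1244 and 2429 CPM in every library, and no library is dark or bright across all members.

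Total counts ran from 4961913 to 20211784 per library with water and from 6065480 to 10436478 with PZH. Levels below are CPM after scaling by the trimmed mean of M values (TMM), with no correction for the length of the mature sequence. The 6 listed hepatocyte markers summed to 221400 to 256400 CPM with water and 202900 to 264100 CPM with PZH, and 1 of them fell. Pancreas markers summed to 3.37 to 27.87 CPM with water, highest in water replicate 2, and 3.12 to 6.25 CPM with PZH, and the 1 marker of that list that was tested fell. Muscle markers, of which 0 of 2 tested changed, summed to 13.69 to 89.19 CPM with water, again highest in water replicate 2, and 10.74 to 43.08 CPM with PZH. Both endothelial markers (12860 to 17100 CPM against 10270 to 13900 CPM) and 1 of 5 leukocyte markers (summed 4147 to 5972 CPM against 3091 to 5513 CPM) fell by the test described next, as did 2 of 5 epithelial and biliary markers (930.8 to 2192 CPM against 863.7 to 1246 CPM) and 0 of 5 mesenchymal ones. No marker list was at 0 throughout, and the part of these cells in the results was not tested. In whole liver, fewer cells of a type and less RNA per cell cannot be told apart.

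The main question was which miRNAs differ between CCl4-injured livers given PZH and those given water. Of the 67 members, 56 passed the filter on low counts, and 6 of these fell with PZH: miR-1192, miR-3473e, miR-6539, miR-6538, miR-6239 and miR-3473b. No member rose. The log2 fold changes of the fallen members ran from -1.60 to -0.60. Across all 607 tested miRNAs, the quasi-likelihood test of edgeR called 11.4% lower and 9.88% higher at an adjusted p under 0.05. The median log2 fold change was 0.00 over the 56 tested members and -0.03 over all 607. At an unadjusted p under 0.05 in edgeR, 9 members were lower and 2 higher, against 17% and 15.3% of all tested miRNAs. DESeq2 called 7 members lower and 1 higher, against 10.9% and 12.9% of all. Armless miRNAs left out by name numbered 15 tested, of which 10 were called lower and 0 higher, 12 being lower and 0 higher at an unadjusted p under 0.05.

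**Figure D2:**
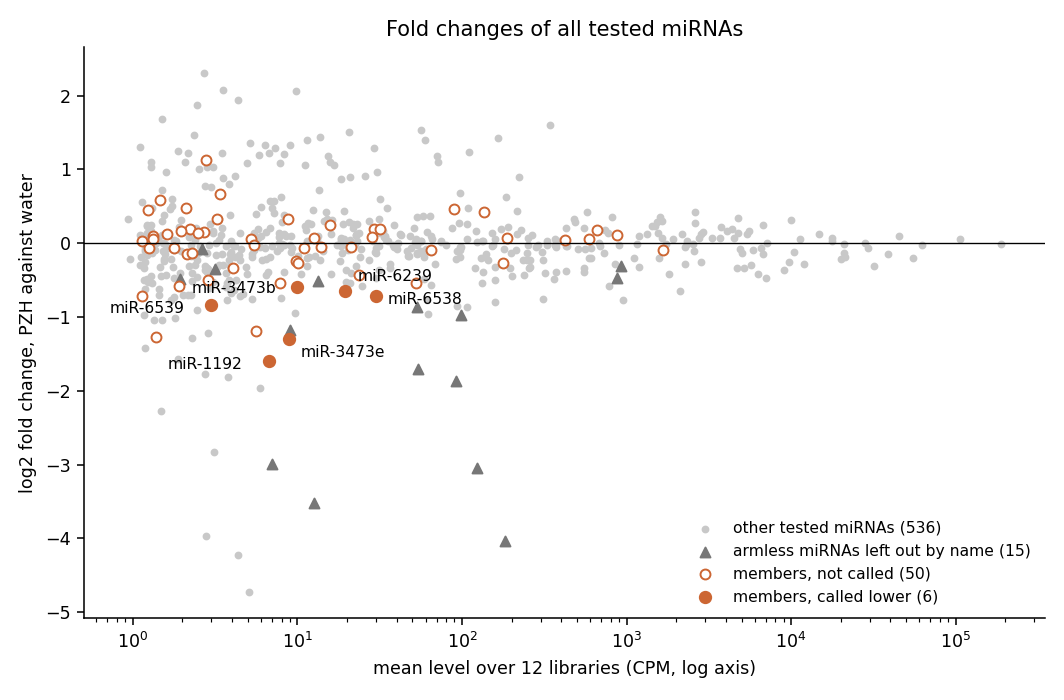
Log2 fold change of PZH against water (vertical axis) against the mean level over 12 libraries (CPM, log axis) for all 607 tested miRNAs, each point 1 miRNA. The 6 called members (filled circles) lie between -1.60 and -0.60 at levels of 2.98 to 30.1 CPM, and the 50 other members (open circles) lie on both sides of 0.

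The member with the lowest fold change was miR-1192, whose mature sequence lies at chr19:23149450-23149471 (GRCm38, plus strand) in an intron of Klf9, a gene of a Krüppel-like transcription factor. Its level with water was lowest at 5.89, with a median of 8.63 and a highest value of 16.4 CPM, and with PZH lowest at 1.79, with a median of 3.26 and a highest value of 4.88 CPM. Every PZH library lay below every water library. The means were 10.02 ± 3.76 and 3.34 ± 1.13 CPM (SD, n = 6 each; log2 fold change -1.60, SE 0.28, edgeR adjusted p = 0.000929). Water replicate 1 was the highest, and over 20 alternatives that could test it the fold change stayed between -1.76 and -1.40.

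Of the miR-3473 members, miR-3473e and miR-3473b fell. The former lies at chr5:31667296-31667316 (minus strand) in an intron of Rbks, the ribokinase gene. Its level was lowest at 9.55, with a median of 12.5 and a highest value of 16.1 CPM, with water, against 2.17, 5.11 and 8.33 CPM with PZH. The groups did not overlap (log2 fold change -1.30, SE 0.24, edgeR adjusted p = 0.00168). For miR-3473b, at chr10:41670774-41670793 (plus strand), opposite an intron of Ccdc162, the lowest, median and highest levels were 10.4, 12.03 and 14.1 CPM with water and 5.67, 8.18 and 9.70 CPM with PZH. These groups did not overlap either, though the change was smaller (log2 fold change -0.60, SE 0.16, edgeR adjusted p = 0.0149). Their sequences differ by 1 edit (a changed, missing or added base) over 20 bases, so how the counting split reads between them is uncertain.

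The other members of that family gave no call. Levels of miR-3473a went from a median of 28.4 CPM (range 25.4 to 34.3) with water to 35.5 CPM (20.2 to 45.1) with PZH, with overlapping groups (edgeR adjusted p = 0.509). Its sequence shares a run of 16 bases with miR-3473b. The medians of miR-3473d, whose sequence resembles the reverse complement of miR-3473b with 2 edits, were 2.34 and 1.94 CPM. The difference between the members that fell and those without a call was not tested.

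From an intron of Rnf144a, which encodes a ubiquitin ligase, miR-6538 lies at chr12:26414970-26414988 (minus strand). Its lowest, median and highest levels were 31.5, 34.03 and 51.5 CPM with water and 17.9, 22.6 and 29.4 CPM with PZH, again without overlap (log2 fold change -0.71, SE 0.15, edgeR adjusted p = 0.00287). The mature sequence is 94.7% G and C, against a median of 52.2% over the 1647 miRNAs of the table that have a sequence.

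With water the level of miR-6539 was lowest at 3.32, with a median of 3.73 and a highest value of 4.45 CPM. With PZH these values were 1.35, 2.10 and 3.02 CPM, and the groups did not overlap (log2 fold change -0.84, SE 0.23, edgeR adjusted p = 0.0148). A mean raw count of 31 stood behind these levels, so that each value rests on few reads. Testing all 1929 miRNAs with no filter ended the call (edgeR adjusted p = 0.138; range over 20 alternatives 0.00504 to 0.138).

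The level of miR-6239, at chr14:117953768-117953787 (minus strand) opposite an intron of the glypican gene Gpc6, was lowest at 19.4, with a median of 24.3 and a highest value of 29.0 CPM, with water. With PZH these values were 9.24, 14.9 and 21.1 CPM, and 5 of 6 PZH libraries lay below every water library (log2 fold change -0.65, SE 0.19, edgeR adjusted p = 0.0231). This call depended on single libraries. It ended without water replicate 1 or 4 or without PZH replicate 2 or 6, with an adjusted p of at most 0.0599 and a lowest value of 0.0111 over 21 alternatives. That of miR-3473b ended when all miRNAs were tested (adjusted p = 0.102; lowest over 21 alternatives 0.00424).

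**Figure D3:**
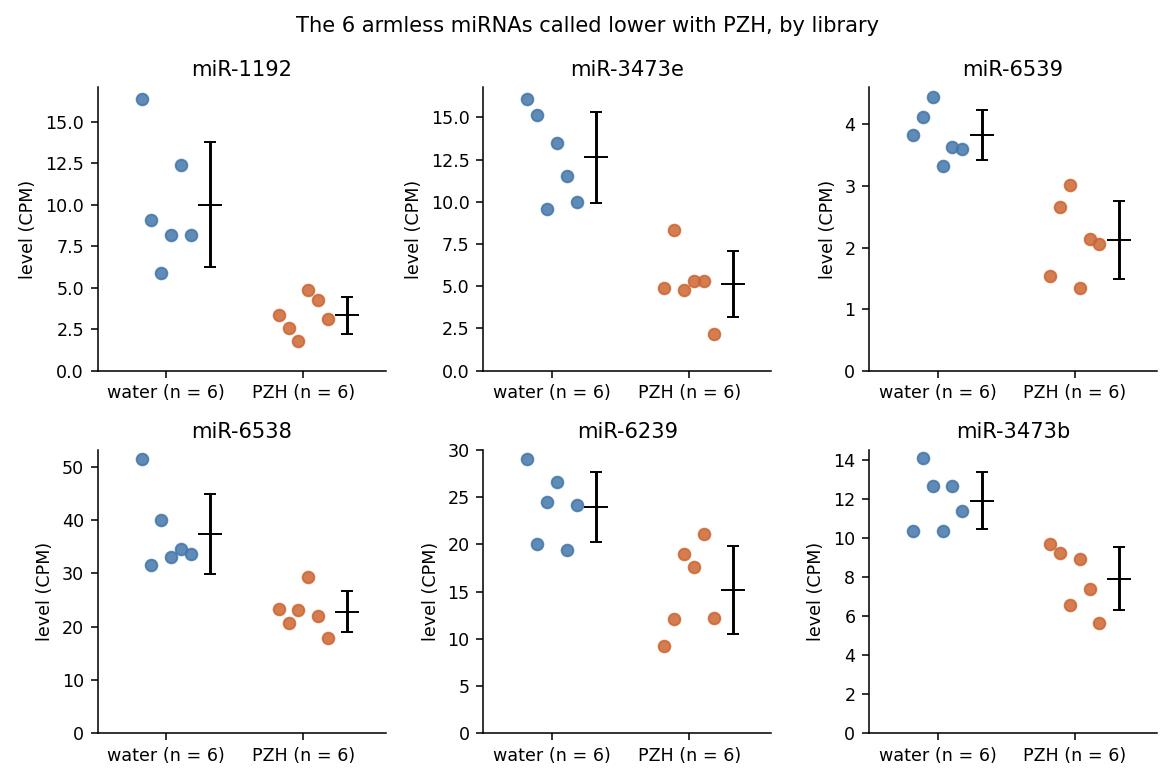
Levels (CPM, each vertical axis from 0) of the 6 members called lower with PZH, 1 point per library, with the mean and SD of each group (n = 6) at its right. In 5 of the panels no point of one group reaches the other, and in that of miR-6239 the highest PZH library, at 21.1 CPM, lies above the lowest water library, at 19.4 CPM.

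In all, 5 members had PZH libraries wholly below water libraries and 0 wholly above. Over the 607 tested miRNAs these shares were 4.94% and 5.11%. The 6 fallen members did not follow each other closely from mouse to mouse. After each group was centred on its own mean, their pairwise correlations across the 12 libraries lay between -0.59 and 0.52, the latter for miR-3473b with miR-3473e.

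The most counted members gave no call. With water the level of miR-5099 was lowest at 1244, with a median of 1639 and a highest value of 2429 CPM, and with PZH it was 1339, 1486 and 2154 CPM (log2 fold change -0.09, SE 0.15, 95% interval -0.41 to 0.23, edgeR adjusted p = 0.786). The lowest, median and highest levels of miR-6390, which lies at chr14:105623710-105623730 (minus strand) in an exon of the non-coding gene Gm6145, were 622, 892 and 965 CPM with water and 679, 964 and 1064 CPM with PZH (log2 fold change 0.11, SE 0.13, interval -0.17 to 0.38, edgeR adjusted p = 0.673). For both, each group spanned the median of the other.

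The level of miR-484 (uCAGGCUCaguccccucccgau, seed in capitals), which lies at chr16:14159630-14159651 (plus strand) opposite an exon of Marf1, was 562, 601 and 729 CPM (lowest, median, highest) with water and 599.7, 717 and 726 CPM with PZH. Water replicate 3 was the highest library of all, so that every PZH library lay within the water range. PZH replicate 2 was the lowest PZH library. The other 5 PZH libraries, at 704.3 CPM or more, stood above the other 5 water libraries, at 639.1 CPM or less. The difference did not pass the test (log2 fold change 0.18, SE 0.08, interval 0.00081 to 0.36, edgeR adjusted p = 0.153). It did with a filter of 10 CPM in 6 libraries (edgeR adjusted p = 0.022, range of adjusted p over 21 alternatives 0.022 to 0.302). That filter tests fewer miRNAs and the scaling is redone on them, and the log2 fold change was then 0.267. For miR-6236 the values were 141, 189 and 269.6 CPM with water and 126, 161 and 184 CPM with PZH (log2 fold change -0.26, interval -0.60 to 0.08, edgeR adjusted p = 0.286).

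Among lower members without a call, unadjusted p was under 0.05 for miR-6240 (log2 fold change -0.54, edgeR adjusted p = 0.124), miR-7578 (-1.26, edgeR adjusted p = 0.0677) and miR-5106 (-1.19, edgeR adjusted p = 0.150). In 5 of 6 PZH libraries miR-7578, from an exon of Brd3, was below every water library, with medians of 1.99 and 0.743 CPM, and PZH replicate 6 had no count. DESeq2 called miR-7578, as did edgeR without PZH replicate 2 (adjusted p = 0.0303). The level of miR-5106 ran from 1.997 to 21.02 CPM with water, where replicates 5 and 3 stood apart from the other 4, around a median of 4.06 CPM, and from 1.35 to 7.16 CPM with PZH. The lowest, median and highest levels of miR-6240 were 38.5, 54.9 and 99.1 CPM with water and 29.0, 42.6 and 56.7 CPM with PZH. Single libraries moved these differences: the log2 fold change of miR-5106 was -0.57 without water replicate 5, and that of miR-6240 was -0.36 without water replicate 1. With all miRNAs tested and no filter, miR-5106 was called lower (edgeR adjusted p = 0.0497).

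**Figure D4:**
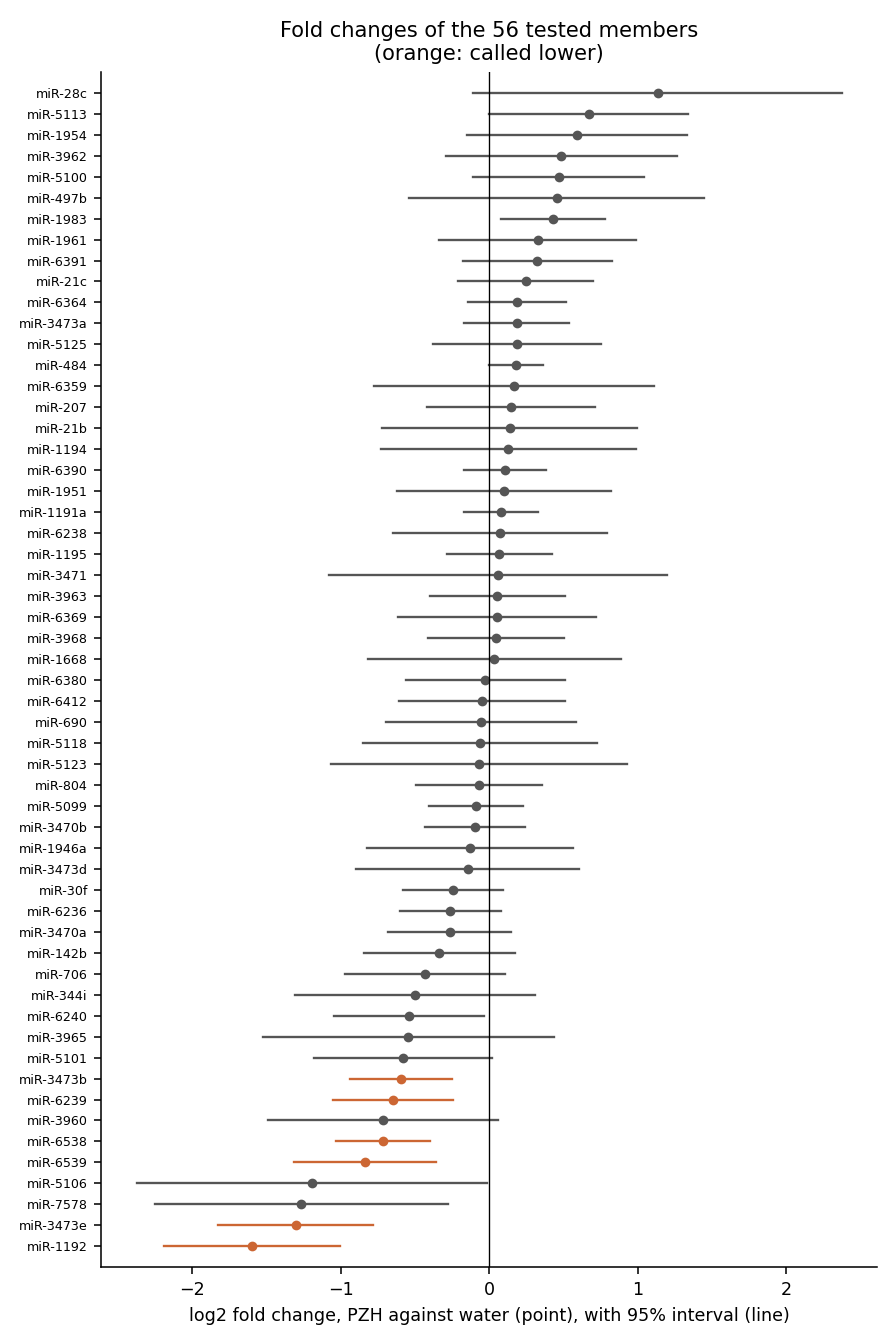
Log2 fold change of PZH against water (points) with its 95% interval (lines) for the 56 tested members, ordered by fold change, with the 6 called lower in orange. Intervals of members at low levels are wide, as for miR-28c at the upper end, whose value of 1.13 has an interval from -0.11 to 2.37.

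Some members followed each other across mice after each group was centred on its own mean. Their sequences are shown together for that reason, with seeds in capitals.
miR-3963: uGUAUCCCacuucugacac
miR-3968: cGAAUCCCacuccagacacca
miR-5100: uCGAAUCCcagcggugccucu
miR-1983: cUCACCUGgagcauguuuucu
They lie apart in the genome, miR-3963 at chr3:151023839-151023857 outside genes, miR-3968 at chr11:115447969-115447989 opposite an exon of Trim80, and miR-5100 at chr11:60728698-60728718 in an intron of Mief2. The letters AUCCCA occur in miR-3963, miR-3968 and miR-5100 and in 0.425% of the 1647 miRNAs with a sequence, read on the strand of the miRNA only. The longer run GAAUCCCA occurs in miR-3968 and miR-5100 and in 1 other miRNA, miR-191-5p. The mature sequence of miR-1983, at chr13:21896930-21896950, shares 13 bases of position with the RefSeq transfer RNA gene n-TItat14 (chr13:21896938-21897031) and reaches 8 bases beyond it. Transfer RNAs carry amino acids to the ribosome and are also cut into fragments of the size of miRNAs.

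Levels of these 4 members moved together. On log2(CPM + 1) values centred within each group, their 6 pairwise correlations across the 12 libraries lay between 0.84 and 0.97, with a median of 0.94. Over the 1540 pairs of tested members the median was 0.12 and the highest value 0.97. Members without the letters AUCCCA followed them too. The centred correlations with the 4 members were 0.77 to 0.83 for miR-6391 and 0.68 to 0.75 for miR-21c. Within PZH alone the 6 correlations among the 4 members were between 0.83 and 0.99. Within water alone, where levels differed less, they were between 0.46 and 0.95. These are descriptions of libraries that share depth and scaling, and the group was picked after the values were seen.

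PZH libraries were spread more widely than water libraries in these members. The level of miR-3963 was lowest at 508, with a median of 557 and a highest value of 733 CPM, with water, and 313, 577 and 895 CPM with PZH. For miR-3968 the lowest, median and highest levels were 355, 415 and 469.9 CPM with water and 222, 389 and 661 CPM with PZH. In both, PZH replicates 2 and 4 stood above every water library and PZH replicates 5 and 6 below every one. The fold changes were near 0 (log2 0.05 for each, intervals -0.40 to 0.51 and -0.41 to 0.50, edgeR adjusted p = 0.906 and 0.919) and turned negative without PZH replicate 2 (-0.05 and -0.07) or 4 (-0.10 and -0.13). The difference in spread was not tested.

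For miR-1983 the lowest, median and highest levels were 100.6, 114 and 132 CPM with water and 104, 161 and 207 CPM with PZH, with 4 PZH libraries above every water library and 2 within the water range. The call was missed by edgeR (log2 fold change 0.43, SE 0.16, adjusted p = 0.0793) and made by DESeq2, with no filter, with the filter of 10 CPM, and without PZH replicate 5 or 6 (range of adjusted p over 21 alternatives 0.0292 to 0.187). The medians of miR-5100 were 71.9 and 88.3 CPM, with ranges of 57.7 to 92.5 and 47.6 to 176 CPM (log2 fold change 0.47, interval -0.11 to 1.04, edgeR adjusted p = 0.259). The value was log2 0.23 without PZH replicate 4, and log2 0.33 without PZH replicate 2 or with the replicate number as a block.

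**Figure D5:**
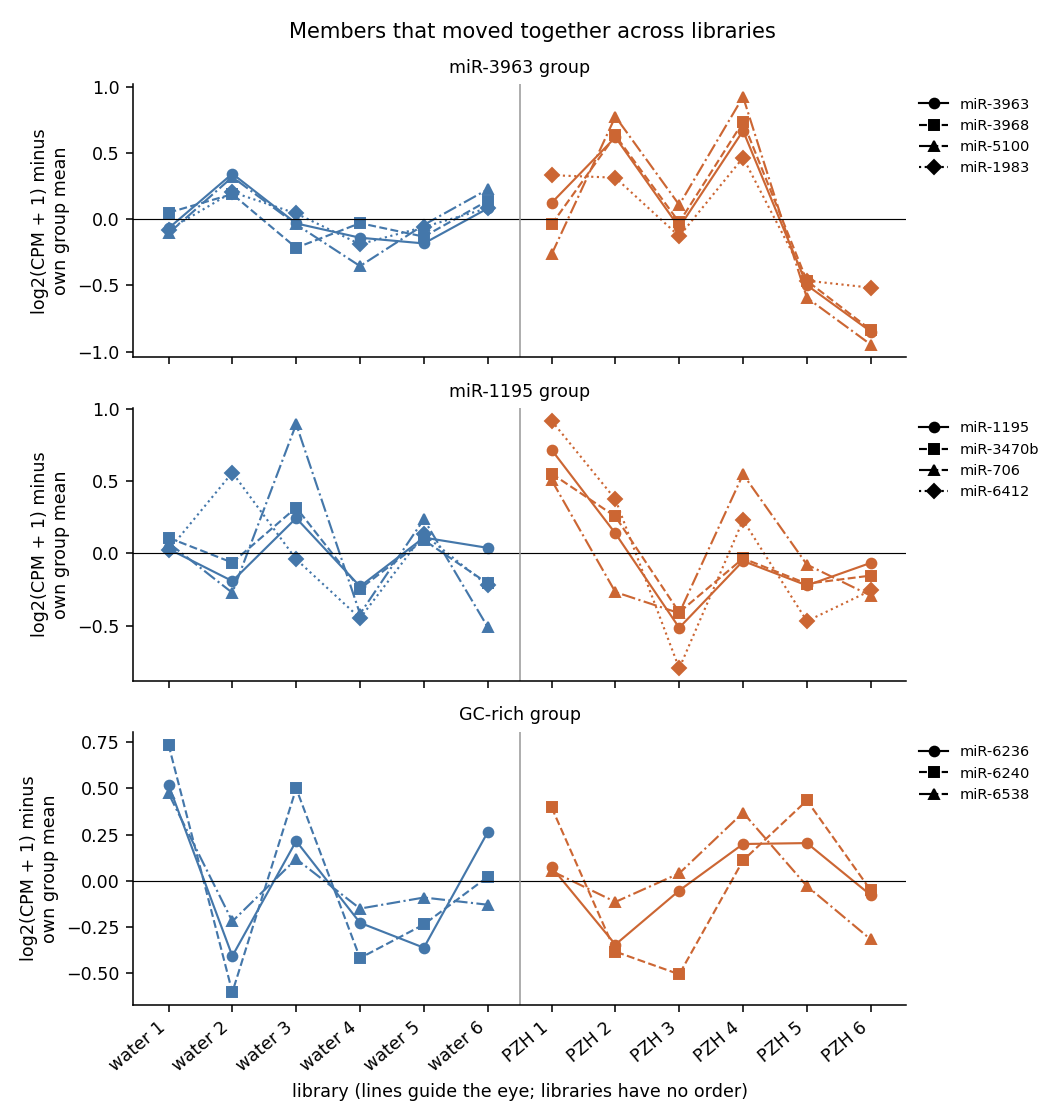
Level of each member in each library as log2(CPM + 1) minus the mean of its own group (vertical axes), water libraries at the left and PZH libraries at the right, for 3 groups of members picked after their values were seen. The 4 members of the miR-3963 group rise together in PZH replicates 2 and 4 and are together low in PZH replicates 5 and 6.

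Members with sequences that recur in many transcripts formed another set, shown because no other miRNA of the table with a sequence had such counts.
miR-3470b: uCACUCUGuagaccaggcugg
miR-706: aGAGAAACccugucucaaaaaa
miR-3473a: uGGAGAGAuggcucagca
The whole mature sequence of miR-3470b was found, on either strand, in GENCODE M21 transcripts of 1016 genes, entries of type miRNA left aside. It was found in 725 genes for miR-3473b, in 450 for miR-706 and in 281 for miR-3473a, and in 61 for miR-3471. In all, GENCODE M21 has transcripts of 55341 genes. Of the 1591 other miRNAs with a sequence, 0 reached 100 genes. On the sense strand alone the numbers were 546, 343, 208 and 146 genes. Any match at all was found for 30.4% of members and 24.5% of the other miRNAs.

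Of these, miR-3470b had a median of 67.4 CPM (range 56.1 to 83.2) with water and 57.6 CPM (46.1 to 90.7) with PZH, with overlapping groups (log2 fold change -0.09, edgeR adjusted p = 0.793). It moved with miR-1195, whose sequence shares a run of 8 bases with its reverse complement (centred correlation 0.92 across 12 libraries). The level of miR-1195, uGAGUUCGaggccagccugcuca, was lowest at 156, with a median of 187 and a highest value of 217 CPM, with water, and 129.8, 178 and 306 CPM with PZH (log2 fold change 0.07, edgeR adjusted p = 0.872). PZH replicate 1 was the highest library for both, and without it the value for miR-1195 was -0.11. With miR-706 and miR-6412 added, the 6 correlations ran from 0.45 to 0.92, from -0.03 to 0.96 within water alone and from 0.58 to 0.97 within PZH alone.

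Another set that moved together, also picked after the values were seen, had members rich in G and C. In miR-6236 (78.9% G and C), miR-6240 (69.2%) and miR-6538 (94.7%) the centred correlations were 0.63 to 0.86, between 0.80 and 0.91 within water and between 0.20 and 0.75 within PZH. The set is not bounded by that content. With 36.4% G and C, miR-6238 correlated at 0.77 with miR-6240, at 0.50 with miR-6236 and at 0.14 with miR-6538. Left outside the set were miR-1895 (72.7%) and miR-8112 (70.0%), which did not pass the filter. The summed level of miR-6236, miR-6240 and miR-6538 was 211 to 420.2 CPM with water, highest in water replicate 1, and 178 to 263 CPM with PZH.

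Other members resemble abundant miRNAs of the liver or lie opposite one. They are shown with those relatives, seeds in capitals.
miR-1961: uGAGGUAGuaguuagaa
miR-3962: aGGUAGUAguuuguacauuu
let-7g-5p: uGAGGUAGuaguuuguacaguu
miR-3965: uGCUUAUCagccugauguu
miR-21c: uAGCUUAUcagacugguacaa
miR-21a-5p: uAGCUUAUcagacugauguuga
miR-142b: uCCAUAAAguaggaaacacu
miR-142a-3p: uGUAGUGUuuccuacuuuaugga
Aligned end to end within the longer sequence, miR-3962 differs from let-7g-5p, a growth-restraining miRNA, by 1 edit, and miR-1961 by 2. From miR-21a-5p, a miRNA that injury induces in many tissues, miR-3965 differs by 2 edits, miR-21b by 4 and miR-21c by 5. The sequence of miR-142b is the exact reverse complement of 20 bases of the leukocyte miRNA miR-142a-3p and lies at chr11:87756906-87756925 opposite Mir142hg, the host gene of that miRNA. A relative within 2 edits was found for 17.9% of members and for 23.5% of the other miRNAs with a mean raw count of at least 10.

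These members stood at a very small share of their relative. The mean raw count of miR-1961 was 0.0182% of that of let-7g-5p, and that of miR-3962 was 0.0114%. For miR-21c the share of miR-21a-5p was 0.00855%, for miR-3965 0.00377% and for miR-21b 0.0013%. For miR-142b it was 0.362% of miR-142a-3p. In each library the share of miR-1961 lay between 0.0136% and 0.0199% with water and between 0.0109% and 0.0299% with PZH. The level of miR-1961 was 2.26 to 3.86 CPM with water and 1.69 to 6.37 CPM with PZH, and it followed let-7g-5p across the 12 libraries with a centred correlation of 0.94, while miR-3962 did so with 0.40. Those of miR-3965, miR-21c and miR-21b with miR-21a-5p were 0.21, 0.34 and -0.16. How the authors' counting assigned reads near 2 such sequences is not stated, and whether reads of the relative entered these counts was not tested. None of these members was called by edgeR. Likewise miR-30f, at 9.49 to 11.8 CPM with water and 6.08 to 10.9 CPM with PZH, gave no call (edgeR adjusted p = 0.324).

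Of the 46 members with a hairpin, 7 shared a run of at least 18 bases with another small non-coding RNA gene of GENCODE or overlapped a RefSeq one, which is 15.22%, against 2.19% of 1504 other miRNAs with a hairpin. These were miR-1983, miR-3473a, miR-3473b, miR-3473e, miR-690, miR-1954 and miR-1187. Of them, 6 were tested and 2 fell, the miR-3473 pair given above, whose sequences differ by 1 edit. Over all 607 tested miRNAs 11.4% were called lower. For miR-3473a, miR-3473b, miR-3473e and miR-690 the partner was the same gene, Gm22514, which is typed only as miscellaneous RNA. With a run of 20 bases the count was 4 and with 16 bases it was 8.

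A gene on the same strand held 30 members, in an exon in 11 cases and in an intron in 19. Of these 30, 23 were tested and 3 fell, miR-6538, miR-1192 and miR-3473e, beside 11.4% called lower of all 607 tested miRNAs. With miR-3473a, miR-690 and miR-1954, miR-3473e also belongs to the set that shares sequence with small non-coding RNA genes. The others tested were miR-6390, miR-5100, miR-6364, miR-1191a, miR-706, miR-6391, miR-5106, miR-6369, miR-5113, miR-207, miR-21b, miR-5125, miR-3473d, miR-5101, miR-7578, miR-1951 and miR-5123. Among them miR-207 lies in an exon of the chaperone gene Dnaja1 and had medians of 2.27 and 2.76 CPM. In an exon of Tnrc6b, which encodes an Argonaute partner, miR-5113 had medians of 2.61 and 4.59 CPM with overlapping groups (edgeR adjusted p = 0.154).

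Another 23 members with a sequence were placed in neither set and lay opposite a gene (9) or outside genes (14). Transfer RNA genes outside the mitochondrial genome were compared by position only. Likeness in sequence to such a gene elsewhere in the genome was therefore not searched for any member. Of the 23, those with no hairpin in the RefSeq table could not be searched for shared runs. They were the fallen miR-6239 and also miR-3470b, miR-1195, miR-6412, miR-6236, miR-30f and miR-1946b. Of the 23, 22 were tested and 1 fell, miR-6239, where 11.4% of all 607 tested miRNAs were called lower. Besides members described above they included miR-804 (medians 10.4 and 10.1 CPM), miR-6380 (5.24 and 4.60 CPM) and miR-6238 (11.2 and 11.0 CPM), and also miR-344i, miR-5118, miR-3471, miR-497b and, untested, miR-1946b. Of the 11 members with no sequence in the table, 9 were tested and 1 fell, miR-6539, beside the same 11.4% of all tested miRNAs. Among those without a call miR-3470a had medians of 10.9 and 7.88 CPM (edgeR adjusted p = 0.404), and miR-3960 of 1.48 and 0.798 CPM (edgeR adjusted p = 0.189). The most positive fold change was that of miR-28c, at medians of 1.61 and 2.49 CPM, where PZH replicate 4 alone reached 11.9 CPM. Without that library its log2 fold change was 0.32 in place of 1.13.

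Some members without a call had several PZH libraries beyond every water library, and the share of all tested miRNAs with such a pattern was not counted. The members named here are examples chosen after values were seen. Others had the pattern too, such as miR-6390 with 3 PZH libraries above every water library and miR-30f with 3 below. Of those given above, miR-3470a had 4 PZH libraries below every water library. Above every water library were 4 PZH libraries of miR-5113 and 4 of miR-3473a, which also had 1 below. In 4 of 6 PZH libraries miR-5101, from an exon of the nuclear envelope gene Syne2, was below every water library (medians 2.22 and 1.40 CPM, edgeR adjusted p = 0.171). In 4 of 6 PZH libraries miR-1954, from an intron of the endoglin gene Eng, was above every water library (medians 1.097 and 1.94 CPM, edgeR adjusted p = 0.269). For miR-706, in an intron of the kinase gene Wnk1, the medians were 23.9 and 17.1 CPM and 3 PZH libraries lay below every water library (edgeR adjusted p = 0.262). For miR-1191a, from an exon of BC024978, 3 PZH libraries lay above every water library (edgeR adjusted p = 0.751). Its medians were 28.5 and 29.7 CPM, with ranges of 23.0 to 30.1 and 23.4 to 32.8 CPM. The level of miR-690, in an intron of Fgf12, had medians of 13.6 and 12.7 CPM, with 1 high library in each group.

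The 11 members that did not pass the filter were miR-6407, miR-1187, miR-145b, miR-8114, miR-8112, miR-1903, miR-1946b, miR-3472, miR-5104, miR-697 and miR-1895, with mean levels of 0.971 to 1.25 CPM. Of these miR-697, from an intron of Sf3a3, had medians of 1.64 CPM with water and 0.328 CPM with PZH, and 5 of 6 PZH libraries lay at 0.362 CPM or less. The groups overlapped through PZH replicate 5 at 1.46 CPM and water replicates 2 and 6 at 0.469 and 0.40 CPM. Without either of those water libraries miR-697 passed the filter and was called lower by edgeR. At these levels a value rests on a few counts. Of the others, miR-1187 had medians of 1.495 and 0.309 CPM, with 4 of 6 PZH libraries below every water library, and miR-8112 and miR-1946b each had 5 of 6 below.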

How the data were processed

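Raw counts of 1929 mature miRNAs in 12 libraries were deposited by the authors without normalization, per the file's own name and values. The submitters' processing notes name cutadapt, FastQC, BWA, DESeq2 and GRCm38, with no versions, roles or order. Which tool counted reads, on which strand, and what became of reads with several matches, is not stated there. No cell holds the value 1.

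All miRNAs were tested together by quasi-likelihood in edgeR 4.0.16 under R 4.3.3 (TMM scaling, default filterByExpr filter, which kept 607 miRNAs, Benjamini-Hochberg adjustment over all of them, call at an adjusted p under 0.05), and the members' results were read from it. SEs were derived from the test statistic. The method was tested on simulated data. Alternatives used limma 3.58.1 and DESeq2 1.42.0. Sequences came from the RefSeq table and edits from edlib. Members and lists were chosen with earlier results of these data known. Every member was to be named, with full values for called members and the 8 most counted; others named with values, and the 3 co-moving groups, were chosen after values were seen. Samples were grouped by title. Both groups carry replicate numbers 1 to 6, which nothing in the labels ties to shared animals, litters or days, so the fit had no block. P-values weigh the difference between the groups against the spread between these libraries.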

Additional observations from a re-analysis of the deposited data

Results flagged for a closer look

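In 112 groups of 6 libraries (56 tested members, 2 groups each), 5 had a lowest or highest library far from the rest, where chance gives about 1 in 20 groups. For miR-484, PZH replicate 2 was low at 599.7 CPM against 704.3 in the next. For miR-690, water replicate 3 was high at 26.6 CPM against 14.0, and PZH replicate 4 at 24.9 CPM against 13.9. For miR-28c, PZH replicate 4 stood at 11.9 CPM against 3.82, and for miR-6359, PZH replicate 1 stood at 5.23 CPM against 1.97. Of the 5, none concerned a member called by edgeR.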

How the results depend on the processing

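The count of called miRNAs among all tested (129) was 94 to 144 over the alternatives, and 99 to 139 with 1 library left out. Of the members, the main analysis called 6 lower, as did RLE, TMMwsp and total-count scaling, robust edgeR and limma-voom, with all 6 calls shared. With the replicate block 6 were called too, with 6 shared and 114 among all miRNAs. Same-numbered libraries correlated between -0.147 and 0.08, and in 1 of 6 cases a water library correlated best with its own number. With 1 library left out, 5 to 7 members were called lower and 0 to 1 higher. With 10 CPM in 6 libraries, which tested 25 members, 3 were called lower and 2 higher (miR-484 and miR-1983), and with DESeq2 and without a filter 1 was called higher, miR-1983. The median log2 fold change of tested members (0.003) changed sign with limma-voom (-0.084), with the replicate block (-0.049) and with no filter (-0.018), and was -0.16 to 0.038 with 1 library left out. Without a filter the median of all miRNAs was -0.156. Small uncalled fold changes changed sign: miR-3963 and miR-3968 with limma-voom (-0.0389 and -0.0521) and with the replicate block (-0.0327 and -0.0481), and without PZH replicate 2 (-0.0543 and -0.066) or 4 (-0.103 and -0.134), miR-1195 without PZH replicate 1 (-0.111), and miR-5099 without water replicate 2 (0.0306). Leaving out 1 library at a time gave -0.103 to 0.184 for miR-3963, -0.134 to 0.174 for miR-3968, -0.111 to 0.171 for miR-1195 and -0.172 to 0.0306 for miR-5099. The cause was not tested. The filter of 10 CPM in 6 libraries tests fewer miRNAs, and the scaling is redone on them. With it the log2 fold change was 0.267 for miR-484, 0.517 for miR-1983 and -0.627 for miR-6538, against 0.18, 0.428 and -0.714 in the main analysis. The median over all tested miRNAs was 0.066 with that filter (344 miRNAs) and -0.029 in the main analysis (607 miRNAs). With a mean raw count of at least 5 or 20 the members numbered 102 or 44, with 6 called lower in each case. Matches in the genome and the masked share of hairpins were not run, since no genome sequence was used here.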

Other observations

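Seeds were shared with other miRNAs of the table by 15 of the 56 members with a sequence. The seed of miR-1961, GAGGUAG, is that of let-7 and occurred in 10 other entries, and that of miR-6369, GGCUCAG, is also the seed of miR-24-3p. The fallen miR-1192 shares AACAAAC with miR-495-3p and miR-12200-5p, and the fallen miR-6239 shares AGCGUUG with miR-6351. The seed of miR-497b, ACCACAG, is that of miR-140-3p. A shared seed is a match of 7 letters, and targets were not measured here.

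Of the 46 hairpins of members, the mature sequence lay nearer to the 3' end in 30 and nearer to the 5' end in 16.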
